A study of Mus musculus with 16 samples.

Results

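The stretch at Tacc1 is a run of long non-coding transcripts in the upstream part of the mouse Tacc1 gene on chromosome 8 (GRCm38). The window spans 48510 bases, from the lower end of NONMMUT130071.1 (which ends at 25210301) to the upper end of NONMMUT130085.1 (which begins at 25252447). Its members are all listed transcripts whose whole interval lies in it, which are 17 of 51024. All 17 carry NONCODE names, and 16 of them reached 1 FPKM (read density, scaled to transcript length and to the reads of the library) in at least 4 of 16 libraries and were tested with 7413 features in all. The window, and NONMMUT130078.1 within it, were chosen by FPKM values of these libraries, with high-fat against ordinary feed and the drug groups in view. High-fat values against ordinary feed are therefore given as a description, with no p-value. The comparisons of each drug with high fat or with ordinary feed use some of the same libraries and are described likewise. In all of these, counts of limma calls stand only beside the share called of all features and are no evidence for the members. Resveratrol against metformin shares no library with high fat against ordinary feed, and its adjusted p-values are given. Since drug values were known too, they are not fully independent of the choice, and NONMMUT130078.1 is described there without a p.

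Total liver RNA of C57BL/6J mice was sequenced in 16 libraries, 4 for each of 4 groups. The first group had ordinary feed and the second high-fat feed. The others had the high-fat feed and, by gavage, either resveratrol, a plant polyphenol (100 mg/kg each day), or metformin, a drug that lowers blood glucose (200 mg/kg each day). Strain and tissue were shared, and every label gives the age as postnatal day 21. The labels name no sex and do not say whether each library is 1 animal. All 4 high-fat titles begin alike, whereas every other group has several title prefixes; what a prefix marks is not stated, so it and high-fat feed cannot be told apart. The values analysed here are those of long non-coding transcripts, so the tissue can be checked only through transcripts beside marker genes. Of 10 hepatocyte markers 1 had a tested transcript linked by position (Apoa1), as did 1 of 5 macrophage markers (Csf1r) and 1 of 6 stellate markers (Reln), and none of the endothelial, bile duct or lymphocyte markers had one. Summed levels of these linked transcripts overlapped between groups for Apoa1 (0.273 to 1.66 FPKM on high fat, 0.869 to 2.31 on ordinary feed) and Reln (0.432 to 1.42 and 0.384 to 1.40 FPKM). The Csf1r transcript had 0.0647 to 0.125 FPKM on high fat, 0.111 to 3.31 on ordinary feed, 0.124 to 3.89 with resveratrol and 0.121 to 3.20 with metformin, and none of the 3 was called in any comparison. The part of cell makeup in the results was not tested, and fewer cells of a type and less RNA per cell cannot be told apart in whole liver.

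Tacc1 encodes a protein of the transforming acidic coiled-coil family. These proteins share a coiled-coil domain at their end, sit at centrosomes and bind the microtubule polymerase Ckap5 (chTOG) and Aurora A kinase. TACC1 also binds nuclear receptors, among them the thyroid hormone and retinoic acid receptors, and acts as a co-regulator there. In liver, receptors of this class control the genes of lipid, bile acid and glucose metabolism.

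The gene lies on the minus strand (25154552 to 25256588, GENCODE M21) and has several annotated first exons, at 3 places inside the window and at others below it. The sequences below show where each of these first exons (last 15 bases, in capitals) joins the next exon (first 15 bases, in lower case), 5′ to 3′ in GENCODE M21 transcripts on GRCm38. They are printed because the introns removed at the first 3 junctions are the ones that hold the members.
ENSMUST00000209827.1: GGCGGCAACGGACAGctcggattctgaagg
ENSMUST00000210016.1: TTCCCAGTGTGCCAGgagcggctgcaaagt
ENSMUST00000210933.1: AGCCGTGGATGTCGCgagcggctgcaaagt
ENSMUST00000084030.5: ATCCCTGAGTTTCAGctcggattctgaagg
The first of these introns spans 56.2 kb (25200207 to 25256361), the second 63.5 kb and the third 62.8 kb, and each holds 16 of the 17 members. The fourth first exon (25201122 to 25201542) lies below the window, and its intron holds none. The first and the fourth exon join the same downstream exon, as do the second and the third. These are bases of Tacc1 transcripts, and no sequence taken from the members themselves is printed.

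Of the 16 tested members, 15 are single intervals of 681 to 2199 bases, and all 15 are intronic, with no base in an annotated Tacc1 exon. They lie downstream of the third start of Tacc1 from its upstream end, at 25240901 (the 5′ end of ENSMUST00000210933.1), with centres 1.42 to 31.7 kb from it, and cover 35.2% of the window. NONMMUT064968.2 overlaps NONMMUT130072.1 by 433 bases and NONMMUT130073.1 by 573 bases, so these share reads or split them. The sixteenth, NONMMUT130085.1, consists of several parts, and its interval includes the most upstream first exon, that of ENSMUST00000209827.1. The untested member, NONMMUT064969.2, lies inside NONMMUT130081.1 and had at most 0.305 FPKM and at most 3 reads in any library. No source used here gives the strand handling, so reads of unspliced Tacc1 RNA and of a separate transcript in its introns cannot be told apart.

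Libraries held 17.2 to 31.1 M reads, and a single-interval member had 7 to 215 reads in a library. The fourth high-fat library stood apart, with a median ratio to the geometric-mean library of 0.691 against 0.885 to 1.145 in the other 15 and 22.6% of listed reads on the ribosomal RNA locus of chromosome 17 against 8.80% to 16.1%. Results that rest on it are given with and without it.

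**Figure D1:**
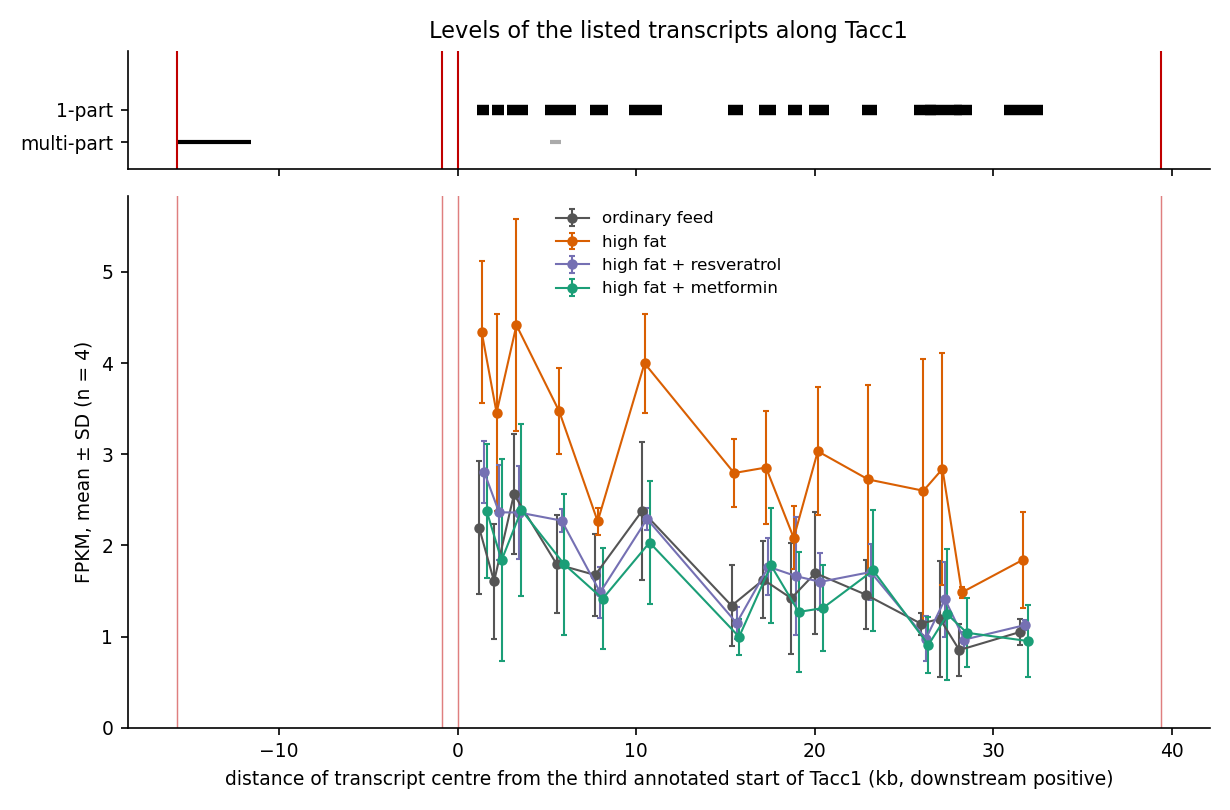
Upper panel: intervals of the 17 members along Tacc1 (black tested, grey not tested), with red lines at the annotated first exons. Lower panel: FPKM (mean ± SD, 4 libraries per group) of the 15 single-interval members against the distance in kb of their centres from the third start; the high-fat line lies above the other 3 at every member, and all 4 lines are lower at the far end.

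Every tested member had its highest group mean on high-fat feed. For all 16, the highest of the 16 libraries was also a high-fat library. Averaged over the 15 single-interval members, the level was 1.05, 1.47, 1.92 and 1.96 FPKM in the 4 ordinary-feed libraries and 2.21, 2.71, 3.30 and 3.57 FPKM on high fat. With resveratrol it was 1.55, 1.61, 1.80 and 1.96 FPKM, and with metformin 1.36, 2.27, 0.922 and 1.61 FPKM. The high-fat libraries did not overlap ordinary feed or resveratrol, while the second metformin library lay just above the lowest high-fat library. The group means were 1.60 ± 0.426, 2.95 ± 0.607, 1.73 ± 0.187 and 1.54 ± 0.562 FPKM (SD, n = 4), in the order ordinary feed, high fat, resveratrol, metformin.

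NONMMUT130078.1 (25224918 to 25225781, 864 bases) had the clearest separation of these groups. It stood at 1.07, 1.26, 1.98 and 1.03 FPKM on ordinary feed and at 2.50, 2.64, 3.34 and 2.69 FPKM on high fat. Resveratrol livers had 0.985, 1.01, 1.33 and 1.26 FPKM, and metformin livers 1.13, 1.12, 0.703 and 1.04 FPKM. All 4 high-fat libraries lay above the other 12, which reached at most 1.98 FPKM, and the other 3 groups overlapped one another. These values rest on 49 to 71 reads per library on high fat and 14 to 36 elsewhere. Group means were 1.34 ± 0.442 on ordinary feed, 2.79 ± 0.374 on high fat, 1.15 ± 0.176 in resveratrol livers and 0.998 ± 0.201 in metformin livers (SD, n = 4).

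The high-fat libraries stood above all other 12 in 3 more members. NONMMUT130079.1 (25229435 to 25231292) had 3.51, 3.72, 4.76 and 4.00 FPKM on high fat and 1.35 to 3.13 FPKM in the other 12. NONMMUT130081.1 (25234295 to 25235993) had 3.17, 3.03, 4.07 and 3.62 FPKM on high fat and 0.970 to 2.74 FPKM elsewhere. NONMMUT130084.1 (25239144 to 25239824), the member nearest the third start, had 3.95, 3.45, 4.88 and 5.09 FPKM on high fat and 1.46 to 3.14 FPKM elsewhere. Of all tested features, 0.189% (14 of 7413) had every high-fat library above the other 12, and these 4 members are among them. Since high fat against ordinary feed chose the window, that share is given beside the count and nothing is read from it.

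**Figure D2:**
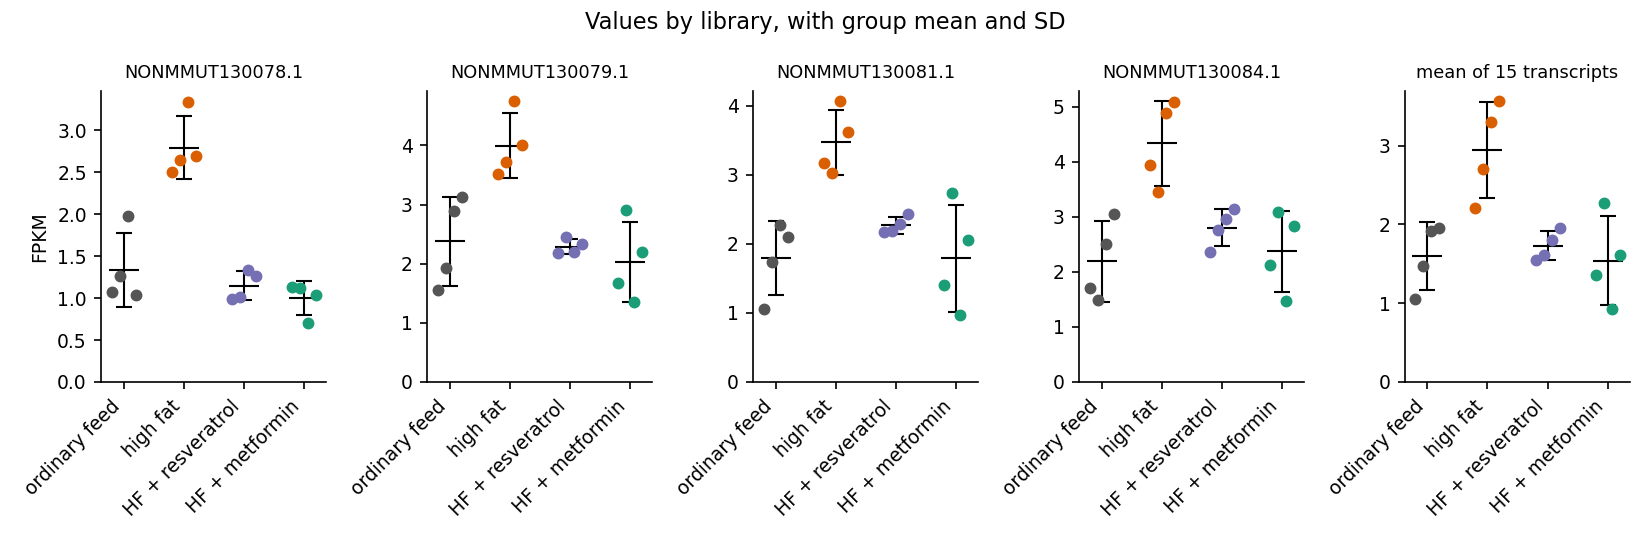
FPKM in each library of the 4 members whose high-fat libraries all lie above the other 12, and of the mean over the 15 single-interval members; points are libraries, black marks the group mean and SD (n = 4). In the first 4 panels no high-fat point falls as low as any other point, and in the fifth 1 metformin library (2.27 FPKM) lies above the lowest high-fat library (2.21 FPKM).

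The other members were less separated. Among the single-interval members, the high-fat libraries differed most among themselves in a pair of overlapping members at the far end. NONMMUT130073.1 (25214134 to 25215367) had 0.894, 2.45, 2.62 and 4.43 FPKM on high fat, so its first high-fat library lay below all 4 ordinary-feed libraries (1.03, 1.14, 1.31 and 1.09 FPKM). Resveratrol livers had 0.710 to 1.31 FPKM there, and metformin livers 0.620 to 1.31 FPKM. NONMMUT064968.2, which overlaps it, had 1.44, 2.78, 2.61 and 4.52 FPKM on high fat, 0.283 to 1.75 FPKM on ordinary feed, 0.855 to 1.84 FPKM with resveratrol and 0.530 to 2.25 FPKM with metformin. The fourth high-fat library was the highest of the 16 in both, although its median ratio was the lowest. NONMMUT130072.1 was the most even on high fat, at 1.43 to 1.56 FPKM, against 0.474 to 1.16 FPKM on ordinary feed. The second metformin library, at 1.55 FPKM, lay within its high-fat range. NONMMUT130080.1 (high fat over ordinary feed 1.35) had the smallest ratio of group means. With all libraries NONMMUT064968.2 (2.37) had the highest, a rank that rests in part on the fourth high-fat library (4.52 FPKM). Its change on the log2(FPKM + 1) scale ran from 0.56 to 1.00 when 1 library was left out. NONMMUT130075.1 had 2.31 to 3.88 FPKM on high fat, 0.847 to 2.39 on ordinary feed, 1.22 to 1.98 with resveratrol and 0.820 to 1.95 with metformin. For NONMMUT130076.1 the ranges were 1.75 to 2.50, 0.551 to 1.96, 0.850 to 2.43 and 0.693 to 1.85 FPKM in the same order.

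Levels were lower with distance from the third start in all 16 libraries. The 5 single-interval members nearest to it averaged 3.59 ± 0.633 FPKM on high fat, 1.97 ± 0.565 on ordinary feed, 2.26 ± 0.310 in resveratrol livers and 1.96 ± 0.789 in metformin livers (SD, n = 4). The 5 farthest averaged 2.30 ± 0.821, 1.14 ± 0.268, 1.24 ± 0.0708 and 1.17 ± 0.420 FPKM in the same order. The ratio of near to far was 1.55 to 2.09 in ordinary-feed libraries, 1.30 to 2.31 on high fat, 1.63 to 2.02 with resveratrol and 1.55 to 1.73 with metformin, so these ranges overlap. The first high-fat library had the steepest ratio of the 16 (2.31) and the fourth the flattest (1.30). Across the 15 members of a library, Pearson's r of level with distance ran from -0.476 to -0.856; the members share the library and some of their bases, so this is a description.

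**Figure D3:**
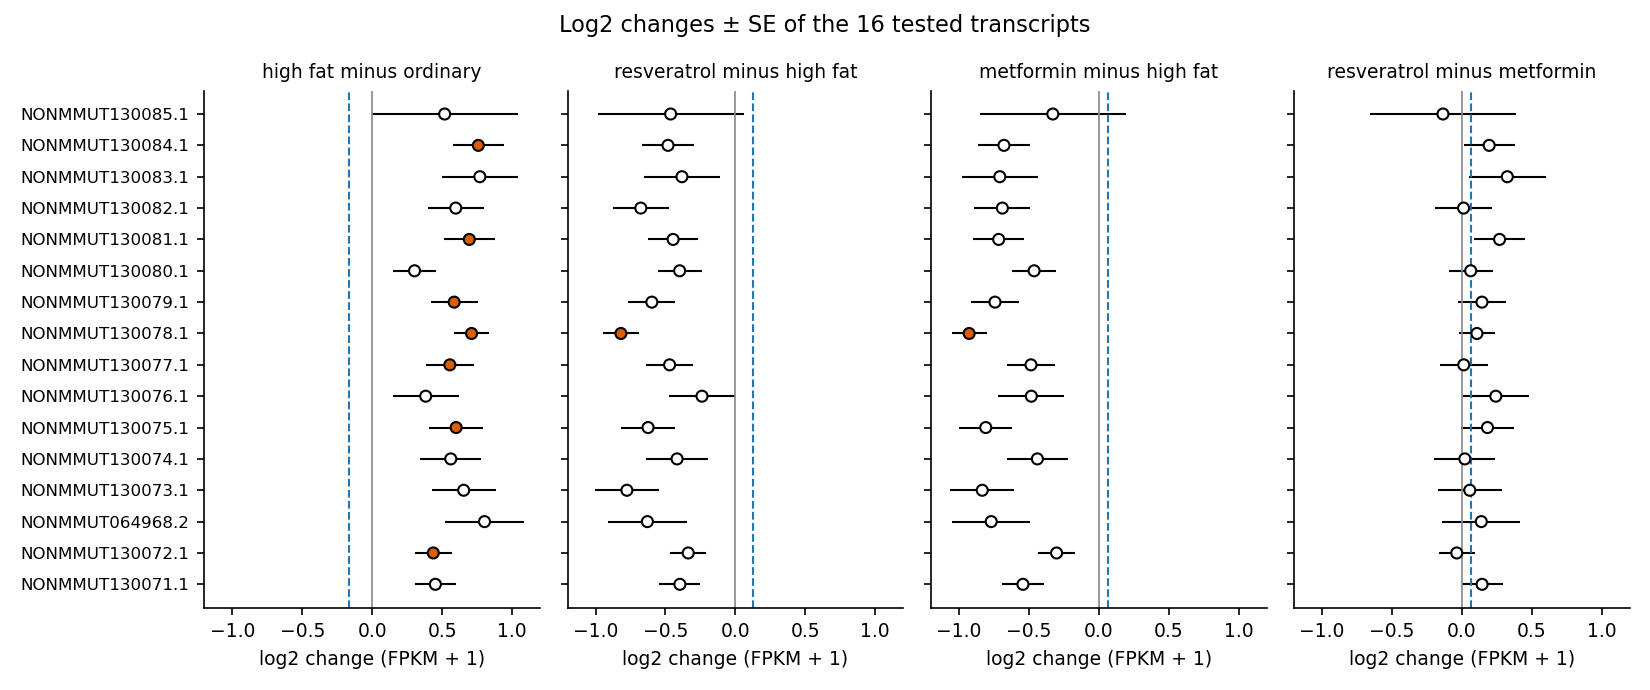
Change on the log2(FPKM + 1) scale with its SE for the 16 tested members, ordered from the upstream end of Tacc1 (top) to the far end, in 4 comparisons of 4 libraries each; filled points were called by limma and the dashed line is the median of all 7413 features. All points lie right of 0 for high fat against ordinary feed and left of 0 for either drug against high fat, and they scatter about the dashed line between the drugs.

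On the log2(FPKM + 1) scale, the 16 members lay between 0.30 and 0.80 for high fat against ordinary feed, with a median of 0.59. All 7413 features had a median of -0.16 and the 2822 intronic ones -0.22. Limma called 7 of the 16, all higher, and 14.6% of all features in either direction (1085 of 7413, of which 210 were higher). Groups did not overlap for 7 of the 16, all with high fat above, and for 3.64% of all features in that direction. These values chose the window and support nothing further. Under median-ratio scaling, which brings the median of all features to 0.00, the members' median was 0.80, and without high-fat library 4 it was 0.49 unscaled and 0.59 scaled. The number called was 12 without high-fat library 1, 3 without high-fat library 2, 2 without any 1 of high-fat libraries 3 and 4 and ordinary-feed library 1, and 1 without ordinary-feed library 2.

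Resveratrol livers were lower than high-fat livers in all 16 members. Changes lay between -0.82 and -0.24 with a median of -0.47, while the median of all features was 0.13. High-fat libraries all lay above the resveratrol libraries for 8 members, and for 1.03% of all features. Limma called 1 of the 16, NONMMUT130078.1 (-0.82, SE 0.13), and 0.0809% of all features, which is 6. The members' median without high-fat library 4 was -0.42. The call was lost without high-fat library 3 or 4 or resveratrol library 1 or 2, beside 0.0136% to 0.0409% of all features called. Without high-fat library 1, 2 members were called, beside 0.233% of all features. The high-fat libraries are those that chose the window, so a lower value in a second group is in part given by that choice.

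Metformin livers were also lower than high-fat livers in all 16 members, with changes between -0.93 and -0.30, a median of -0.68 and a median of all features of 0.07. High-fat libraries all lay above the metformin libraries for 5 members, and for 0.89% of all features. Limma called 1 of the 16, again NONMMUT130078.1 (-0.93, SE 0.13), and 0.027% of all features, which is 2. The members' median without high-fat library 4 was -0.57. This call was lost without high-fat library 3 or metformin library 3, beside 0.0137% and 0.0136% of all features called. Without high-fat library 1, 2 members were called, beside 0.0821% of all features. Both drug comparisons share the 4 high-fat libraries, so their shared direction is not independent.

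Beside ordinary feed the drug groups gave log2 changes of either sign, with SEs of 0.13 to 0.52. With such SEs a difference from ordinary feed is not excluded. With resveratrol 10 members lay above 0 and 6 below, between -0.12 and 0.39, with a median of 0.07 against -0.04 for all features. With metformin 7 lay above and 9 below, between -0.22 and 0.19, with a median of -0.05 against -0.09; under median-ratio scaling that median was 0.05. Limma called none of the 16 in either comparison, and 0.283% and 0.297% of all features. At an unadjusted p under 0.05 the count was likewise 0 of 16 in both, beside 979 of 7413 features with resveratrol and 1488 with metformin. Ratios of group means ran from 0.856 to 1.47 for resveratrol over ordinary feed and from 0.745 to 1.22 for metformin over ordinary feed.

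Resveratrol against metformin, which shares no library with high fat against ordinary feed, showed no called member. Of the 16, 14 lay above 0 and 2 below, with a median of 0.12 against 0.07 for all features, and limma adjusted p-values ran from 0.805 to 0.995. No feature at all was called (0%), while 471 of 7413 features and 0 of the 16 members had an unadjusted p under 0.05. The groups overlapped for every member, and did not overlap for 3.66% of all features with resveratrol higher and 1.11% with metformin higher. The change of NONMMUT130078.1 was 0.11 (SE 0.13, n = 4 per group, 95% interval -0.16 to 0.38), the narrowest interval of the 16. That of NONMMUT130083.1 was the highest, at 0.32 (SE 0.27, 95% interval -0.26 to 0.91, limma adjusted p = 0.830). With 4 libraries per group, these intervals, which are not adjusted for the number of features, do not exclude a difference that lies within them.

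The spread inside the metformin group came largely from a pair of libraries. The third metformin library was the lowest of all 16 for 9 of the 15 single-interval members, and the second was the highest of the 12 libraries outside high fat for 9 of 15. Their mean levels were 0.922 and 2.27 FPKM, while the 4 resveratrol libraries stayed within 1.55 and 1.96 FPKM. The median FPKM of all tested intronic features was 1.31 and 1.60 in these metformin libraries, and at most 1.58 in the resveratrol libraries. In metformin libraries 1 and 4, whose stretch means were 1.36 and 1.61 FPKM, that intronic median was 1.53 and 1.23 FPKM. Divided by that intronic median, the stretch stood at 1.46 to 3.66 on high fat, 0.648 to 1.19 on ordinary feed, 1.03 to 1.30 with resveratrol and 0.704 to 1.42 with metformin. On that relative scale the 4 high-fat libraries lay above the other 12, and the intronic median itself was lowest in the fourth high-fat library (0.975 FPKM). The part of library scale in the levels was not tested beyond the alternatives given with the processing.

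Members moved together across libraries. Over the 105 pairs of the 15 single-interval members, the median Pearson r of log2(FPKM + 1) across 16 libraries was 0.79 (0.43 to 0.94). After group means were taken out it was 0.65 (0.085 to 0.94), and r was above 0 in all 105 pairs. The points share library, depth and locus, and overlapping members share bases.

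At the upstream end, no library listed both of a pair of overlapping transcripts above 0. How reads were assigned between them was not tested, so their sum is a description. NONMMUT130085.1 was listed at 0 in ordinary-feed library 3, high-fat library 3 and resveratrol library 1. In exactly these 3 libraries NONMMUT064970.2 (25252604 to 25256704), which runs 92 bases past the window and is therefore no member, had 1.31, 2.64 and 1.19 FPKM. It was listed at 0 in the other 13, where NONMMUT130085.1 had 0.889 to 4.72 FPKM. Summed, the pair gave 1.37, 2.12, 1.31 and 2.19 FPKM on ordinary feed and 3.03, 3.29, 2.64 and 4.72 FPKM on high fat. Resveratrol livers then had 1.19, 1.97, 2.36 and 1.75 FPKM, and metformin livers 1.31, 2.33, 0.889 and 1.75 FPKM. The 4 high-fat sums lay above the other 12, as did the high-fat libraries in 4 of the 15 intronic members. On the log2(FPKM + 1) scale, high fat minus ordinary feed was 0.52 (SE 0.52) for NONMMUT130085.1 as listed and 0.68 (SE 0.19) for the sum.

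**Figure D4:**
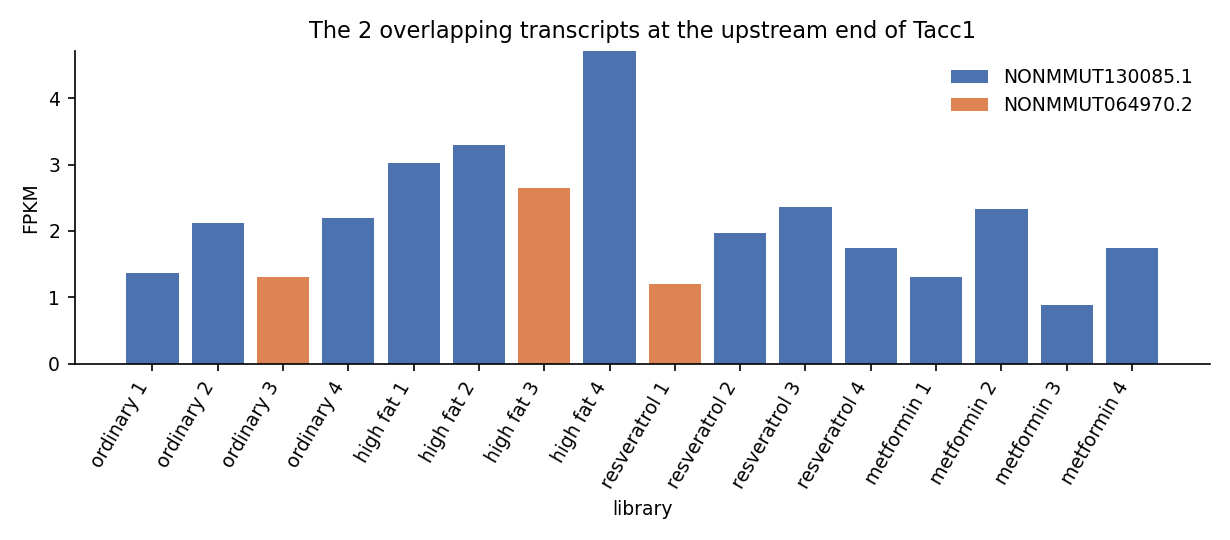
FPKM of NONMMUT130085.1 (blue) and NONMMUT064970.2 (orange), stacked, in each of the 16 libraries. Every bar has 1 colour: 13 libraries list only NONMMUT130085.1 and 3 list only NONMMUT064970.2.

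Outside the window the listed transcripts say little about Tacc1. NONMMUT130070.1 (25161844 to 25163198) was the 1 other listed transcript wholly inside the gene, 44.9 kb below the window, and had 0.0558 to 0.461 FPKM, so it was not tested. The nearest tested features were Gm23094, Gm45343 and Gm45342 at Nsd3, 422 to 436 kb above, and Gm45555, NONMMUT064904.2 and NONMMUT064899.2 at Kat6a and Polb, 2332 to 2571 kb below. High fat minus ordinary feed on the log2 scale was 0.51 (SE 0.18) for Gm23094, 0.15 for Gm45343 and 0.01 for Gm45342, and -0.19, -0.25 and -0.18 for those below in the order given; limma called none of the 6.

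Most genes on the lists for the TACC family and for nuclear receptors had no tested linked transcript. Of 17 genes of the TACC family and its centrosome partners 5 had a tested transcript, of which 1 is Tacc1 itself through a member. Those of Cltc, the clathrin heavy chain, Clasp1 and Mapre1, which bind microtubule ends, and Pcm1, a centriolar satellite protein, were not called in any of the 6 comparisons. Of 36 nuclear receptors and co-regulators 15 had one, with a median change of 0.03 between high fat and ordinary feed. None of the 15 was called in the 5 comparisons that involve a drug group.

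The features most like the stretch, by Pearson's r over 16 libraries with the mean standardized profile of the 16 members and at least 1 Mb away, were the lncRNA gene 9330121J05Rik on chromosome 3 (r = 0.81), the partly exonic NONMMUT008655.2 of Egfr (r = 0.80), NONMMUT008654.2, which overlaps it (r = 0.79), NONMMUT129313.1 on chromosome 8 (r = 0.79) and the intronic NONMMUT017326.2 of Atxn1 (r = 0.78). The Atxn1 transcript had 1.30 ± 0.203 FPKM on ordinary feed, 3.07 ± 1.36 on high fat, 1.26 ± 0.274 in resveratrol livers and 1.15 ± 0.483 in metformin livers (SD, n = 4). The Egfr transcript NONMMUT008655.2 had 11.9 ± 4.92, 79.2 ± 32.2, 37.5 ± 22.8 and 37.5 ± 33.5 FPKM in the same order. Over 7386 features compared, the median r was -0.18 and the 95th percentile 0.44. With group means taken out the most alike were the intronic NONMMUT047417.2 of Ptpn3 (r = 0.87), NONMMUT050422.2 of Prdm2 (0.82), NONMMUT008746.2 of Actr2 (0.80) and NONMMUT042329.2 of Fndc3b (0.80), and then NONMMUT121189.1 on chromosome 5 (0.78). The points share library and depth, each 5 were picked as the highest of many, and no p is given.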

How the data were processed

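Per the labels' protocols, Trizol-extracted total liver RNA went into Illumina TruSeq libraries. The authors deposited 1 file of FPKM values per library; Bowtie 0.12.2, Cufflinks 2.1.1 and GRCm38 are named in the submitters' processing notes, while no source used here gives the annotation, strand or filters. Reads per transcript were recovered from value times length, whose quotient by the worth of 1 read was whole (within 0.05) for 100% of values. Ensembl transcripts were summed per gene and other transcripts kept, giving 49988 features, of which 7413 had at least 1 FPKM in at least 4 libraries. They were tested with limma 3.58.1 (R 4.3.3, mean-variance trend, tested on simulated data) on log2(FPKM + 1), in 1 fit (12 residual degrees of freedom), with p-values Benjamini-Hochberg adjusted over all features and called at an adjusted p under 0.05. The pseudocount understates changes of low features. Positions come from GENCODE M21. A transcript was linked to a gene when exonic or intronic in it or within 5 kb, and the highest one stood for the gene. Transcripts of several parts that overlap a coding gene were linked to none, so counts of linked genes leave them out. Every tested member is named, with the nearest 3 tested features on each side and the 5 most alike by each of 2 measures. Members, lists and tests were chosen with earlier results of these data known. Replicates were numbered in sample order, and p-values measure only the spread between these libraries. Alternatives were another pseudocount, no filter, median-ratio scaling, fits of 2 groups, single transcripts and each library left out. A result for the list of nuclear receptors is not reported here.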

Additional observations from a re-analysis of the deposited data

Results flagged for a closer look

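In each of 64 groups of 4 libraries (16 tested members by 4 groups), the highest or lowest library was checked for a gap to the next above Dixon's 95% critical value; chance gives such a gap in about 1 of 20 groups. It was found in 2. NONMMUT130080.1 had 1.90 FPKM in resveratrol library 4, against 1.29 to 1.39 in the other 3. NONMMUT130082.1 had 3.79 FPKM in metformin library 2, against 1.78 to 2.08 in the other 3.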

How the results depend on the processing

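No paired analysis was possible because the labels give no replicate numbers. Of 7 members called between high fat and ordinary feed, 1 was called without a filter on low values, beside 0.548% of all features. With only the 2 groups fitted 3 were called, beside 7.66%. Leaving out 1 library gave 1 to 12 called members, beside 7.24% to 16.1% of all features. Median-ratio scaling called 10, and 5 without the fourth high-fat library, an alternative added after seeing the data. For resveratrol against high fat the count of 1 became 0 without a filter and 0 with 2 groups fitted, beside 0.0040% and 0.066% of all features. Leaving out 1 library gave 0 to 2, beside 0.0136% to 0.779%. For metformin against high fat it also gave 0 to 2, beside 0.0136% to 0.0953%. The cause was not tested. Counts of 0 in the other 3 comparisons were 0 under each alternative, beside 0% to 2.41% of all features. Changes between resveratrol and metformin that turned sign were all uncalled. With median-ratio scaling they were -0.00019 (NONMMUT130073.1), -0.040 (NONMMUT130074.1), -0.048 (NONMMUT130077.1) and -0.061 (NONMMUT130082.1), and -0.0014, -0.041, -0.050 and -0.063 when the fourth high-fat library was also left out; NONMMUT130085.1 gave 0.15 summed with its partner, also added after seeing the data. Leaving out 1 library gave -0.13 to 0.077 for NONMMUT130072.1, -0.028 to 0.33 for NONMMUT064968.2, -0.021 to 0.15 for NONMMUT130073.1, -0.17 to 0.14 for NONMMUT130074.1, -0.11 to 0.15 for NONMMUT130077.1, -0.060 to 0.20 for NONMMUT130080.1, -0.070 to 0.19 for NONMMUT130082.1 and -0.32 to 0.26 for NONMMUT130085.1. The 15 single-interval members had 7 to 215 reads a library, and counting error limits these levels.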
